A study of Mus musculus with 4 samples.

Results

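Chromatin accessibility was examined at 5 genes of the Meis and Pbx families, Meis1, Meis2, Meis3, Pbx2 and Pbx3, in posterior mouse forelimb buds with and without Sonic hedgehog (SHH). Every ATAC-seq peak that overlapped the body of 1 of these genes, or the 50 kb on either side of it, was collected from 4 deposited peak lists. Overlapping peaks were merged across the lists, which gave 55 regions at the 5 genes among 44692 regions in all. The rule that picks the regions uses position alone.

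MEIS and PBX proteins are TALE homeodomain transcription factors, which bind DNA singly, with each other and with HOX proteins. In the early limb bud MEIS1 and MEIS2 mark the proximal part, where retinoic acid promotes their expression and FGF signals from the apical ridge keep them out of the distal part. PBX proteins are partners that assist HOX proteins in binding their sites, and PBX activity is needed for the expression of Shh itself in the limb bud.

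Embryos were taken at E10.5 (35 somites), 2 of them wild type (WT) and 2 Shh-/-, all of the Swiss Webster background, and the Shh-/- embryos carried a null allele of Shh in all of their cells. Each library was made from the posterior parts of the forelimb pair of a single embryo, with 5000 cells in the Tn5 transposase reaction and 18 cycles of PCR. The study asked how open chromatin responds to Hedgehog signaling. Peaks had been called in each library separately, so an entry in a list means that open chromatin was detected there, and a missing entry means that no peak was called.

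The libraries are named by genotype and replicate number (WT rep1, WT rep2, Shh-/- rep1, Shh-/- rep2), and their lists held 39080, 11973, 5589 and 18459 peaks in that order. They hold no read counts, and the study gives a single sequencing depth for its ATAC-seq libraries. The usable depth of each library is therefore unknown here and moves with the number of calls in an unknown way. Of 4 markers of limb mesenchyme, the promoter of Prrx1 was called in every library, those of Twist1 and Msx1 in 3, and that of the forelimb gene Tbx5 in WT rep1 alone. Of 12 promoters of hindlimb, ectoderm, blood, endothelial, muscle and neural markers, 0 were called in all 4 libraries. Trp63, Fgf8, Gata1, Cdh5, Myod1 and Neurod1 had no promoter peak in any. Among 21938 protein-coding genes, 16.1% had a promoter peak in all 4 libraries, so a few markers say little about the cell types present. The promoters of the hindlimb gene Tbx4 and the muscle gene Pax3 were called in WT rep1 and Shh-/- rep2. Those of Pitx1, Spi1 and Sox1 were called in WT rep1 alone, and that of Epcam in Shh-/- rep2 alone. No list had a peak over an exon of Shh, and the mutant allele therefore cannot be seen in them. In bulk tissue, fewer cells of a type and less open chromatin per cell cannot be told apart.

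The sequences below are from distal regions, those outside the window from 2 kb before to 1 kb after a transcription start site (TSS). They are the best ranked distal regions, by peak score within a list, of Meis1 and Pbx3, and are shown because the first carries intronic calls in both genotypes while the other holds matches to the MEIS core sequence. Each is 300 bases of the plus strand of mm10 (GRCm38), centred on the summit of the best ranked peak. The capitals mark matches to the core TGACAG bound by MEIS and to the CCAAT box, on either strand. The first lies in intron 7 of Meis1, at chr11:18982239-18982538, and holds 2 CCAAT matches.
Meis1 intron 7: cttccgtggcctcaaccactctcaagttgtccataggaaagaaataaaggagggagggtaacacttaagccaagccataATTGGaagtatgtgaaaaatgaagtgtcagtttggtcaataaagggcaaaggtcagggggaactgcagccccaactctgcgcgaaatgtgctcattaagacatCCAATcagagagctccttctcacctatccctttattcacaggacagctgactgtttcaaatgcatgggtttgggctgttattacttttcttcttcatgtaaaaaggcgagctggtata
The other lies beyond the 3′ end of Pbx3, at chr2:34134537-34134836, in intergenic sequence, and holds 2 matches to the MEIS core.
Pbx3 downstream: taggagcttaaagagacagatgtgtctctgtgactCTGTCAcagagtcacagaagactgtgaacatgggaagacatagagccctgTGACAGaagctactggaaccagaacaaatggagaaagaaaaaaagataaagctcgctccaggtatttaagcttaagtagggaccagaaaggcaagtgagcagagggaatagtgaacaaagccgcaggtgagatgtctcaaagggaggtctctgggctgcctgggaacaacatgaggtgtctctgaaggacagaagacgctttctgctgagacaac

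Most regions at the 5 genes were called in a single library, and those called in several were mainly promoters. WT rep1 had 50 peaks at these genes, WT rep2 had 11, Shh-/- rep1 had 9 and Shh-/- rep2 had 18. This order is that of the list sizes. Of the 55 regions, 35 were called in WT rep1 alone (63.6%, against 51.6% of all regions), 2 in WT rep2 alone and 4 in Shh-/- rep2 alone. No region was called in Shh-/- rep1 alone. Another 5 regions were called in all 4 libraries, which is 9.09% of the regions at these genes and close to the 7.97% of all regions. These were the promoter regions of Meis1, Pbx2 and Pbx3, the promoter region of Rnf5 in the Pbx2 window, and the intronic region of Meis2.

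**Figure D1:**
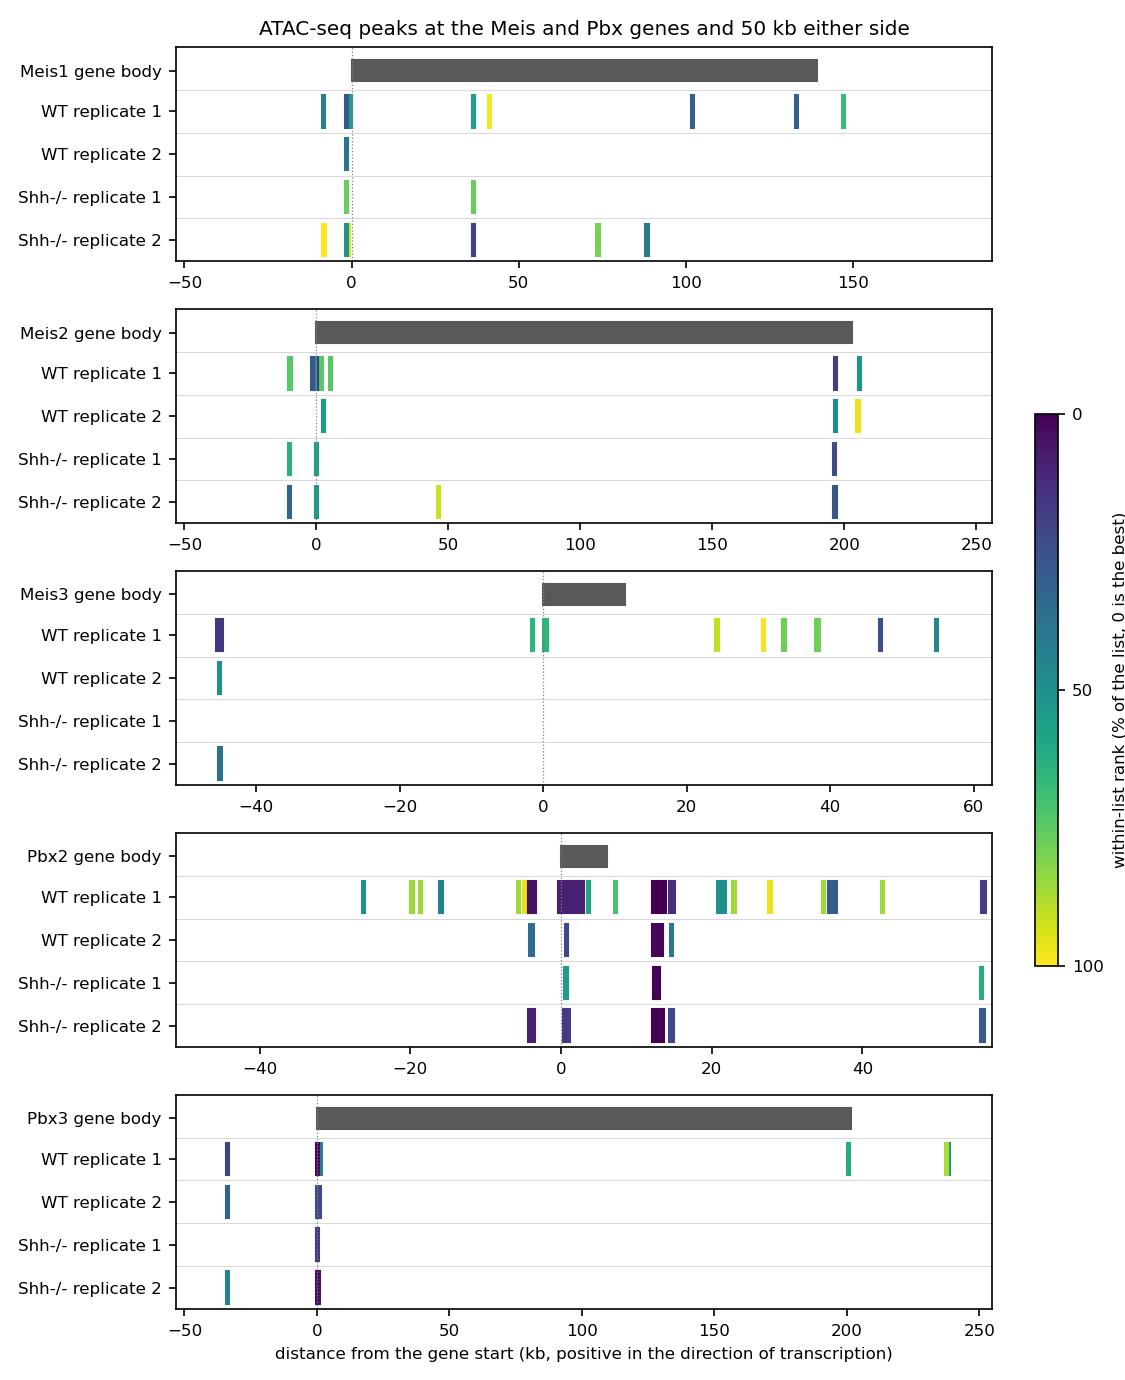
Peaks at the 5 genes, 1 panel per gene, with the distance from the gene's TSS in kb on the x axis and 1 row per library. Short peaks are drawn at a minimum width so that they can be seen. WT rep1 has the most peaks in every panel, and the intronic calls of Meis1 and Meis2 are scattered over the gene body.

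At no gene of the 5 did a region follow genotype in the full lists. There were 0 WT-specific regions (a peak in each WT library and none in Shh-/-), against 2.09% of all regions, and 0 Shh-specific regions (the reverse), against 0.396% of all regions. At backgrounds this low, counts of 0 among 55 regions do not set the 5 genes apart from other loci. A further 4 regions were called in every library but WT rep2, which is 7.27% compared with 2.26% of all regions. They were the region in intron 7 of Meis1, the start of Meis2, a region 10.1 kb upstream of Meis2 and the start of Atf6b. The 4 regions called in every library but Shh-/- rep1 were the starts of Slc8a2, Agpat1 and Mapkap1 and a region in an exon of Notch4 next to Gpsm3, and all 4 belong to neighbours of the Meis and Pbx genes. This pattern was found in 11.3% of all regions.

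**Figure D2:**
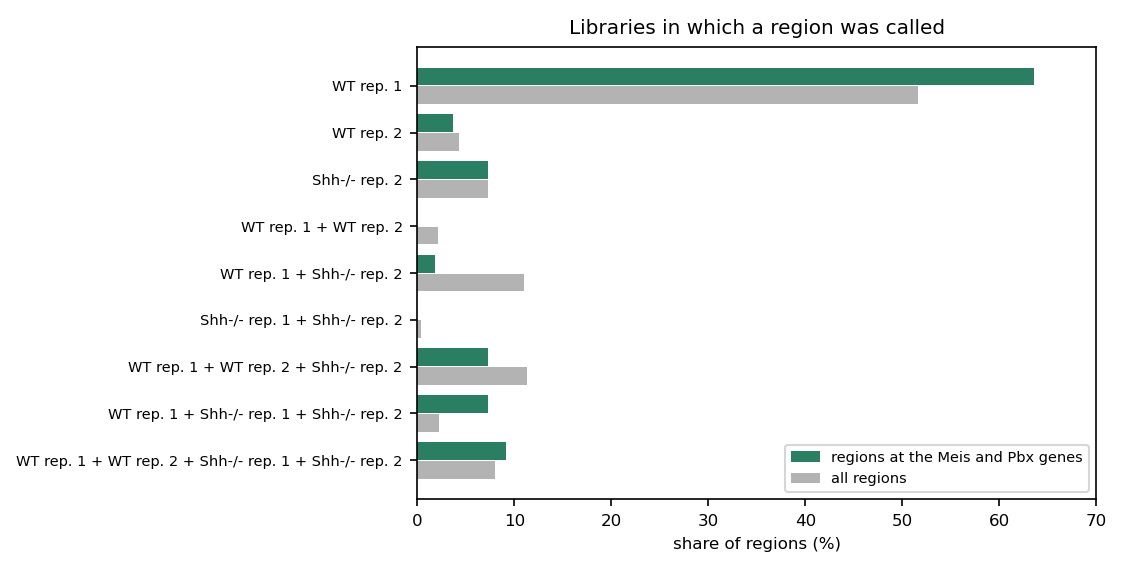
Share of regions, in percent, with each combination of libraries that called them, for the 55 regions at the Meis and Pbx genes and for all 44692 regions. The 5 genes lie above all regions for calls in WT rep1 alone (63.6% against 51.6%) and below them for calls in WT rep1 and Shh-/- rep2 (1.82% against 11%).

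Meis1 encodes a MEIS factor of the proximal limb bud (chromosome 11, 18879817 to 19018985, minus strand, 139 kb). It had 8 peaks in WT rep1, 1 in WT rep2, 2 in Shh-/- rep1 and 6 in Shh-/- rep2, which made up 11 regions. The promoter region at 19020105 to 19021062, 1.27 kb upstream of the gene start, was called in all 4 libraries. Its place is given as the rank by score in the library's own list, as a percentage of the list, so that a low value is a strong peak. It lay at 25.3% in WT rep1, 38.7% in WT rep2, 77.1% in Shh-/- rep1 and 51.1% in Shh-/- rep2. Ranks in lists of such unequal length are not levels, and their order between the genotypes was not tested. The same promoter window had 2 weaker regions, 1 in WT rep1 (56.7%) and 1 in Shh-/- rep2 (95.5%).

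The regions inside Meis1 came mainly from WT rep1 and Shh-/- rep2. Intron 7 held the region at 18982269 to 18982886, 36.6 kb from the gene start, whose sequence is printed above. It was ranked at 19% in Shh-/- rep2 (rank 3501), 77.1% in Shh-/- rep1 (rank 4307) and 56.7% in WT rep1 (rank 22164), and WT rep2 had no peak there. Its summits lay up to 351 bp apart. In Shh-/- rep2 this was the best ranked Meis1 peak, ahead of the promoter, whereas in WT rep1 the promoter came first. The 4 other intronic regions were called once each, at 18916660 in WT rep1 (29.1%) and 18930360 in Shh-/- rep2 (41.2%) in intron 8, and at 18945086 in Shh-/- rep2 (79.8%) and 18977590 in WT rep1 (99.0%) in intron 7. An exonic region at 18885578, where the unclassified transcript Gm37818 overlaps, and the promoter of the noncoding 8430419K02Rik downstream of Meis1 were called in WT rep1 alone. A region 8.24 kb upstream was called in WT rep1 (42.0%) and Shh-/- rep2 (99.3%).

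Meis2, the other MEIS gene of the proximal limb bud (chromosome 2, 115863064 to 116065839, minus strand, 203 kb), had the single distal region at these 5 genes that was called in all 4 libraries. In all, Meis2 had 8 peaks in WT rep1, 3 in WT rep2, 3 in Shh-/- rep1 and 4 in Shh-/- rep2, and 11 regions. The distal region lies in intron 9. It was ranked at 18.4% in WT rep1, 47.4% in WT rep2, 23.2% in Shh-/- rep1 and 26.6% in Shh-/- rep2. In percent of the list, WT rep2 had the weakest rank, and the 3 other libraries lay within a narrow range. This order depends on the list lengths, as the ranks themselves were 7193 in WT rep1, 5678 in WT rep2, 1297 in Shh-/- rep1 and 4914 in Shh-/- rep2. The summits lay within 109 bp. Among all distal regions, 1.73% were called in all 4 libraries.

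The start of Meis2 (116065471 to 116066149) was called at 15.1% in WT rep1, 56.2% in Shh-/- rep1 and 53.1% in Shh-/- rep2. WT rep2 had no peak in the Meis2 promoter window, but had a peak in a coding exon 2.52 kb into the gene, at 116063064 to 116063493 (54.8%). The noncoding G630016G05Rik shares this start with Meis2. At 10.1 kb upstream, a region at 116075615 to 116076148, over the start of the unclassified transcript 2810405F15Rik, was ranked at 73.9% in WT rep1, 63.9% in Shh-/- rep1 and 32.2% in Shh-/- rep2. Its scores were 25, 51 and 134 in that order, and with a score of at least 50 required it was the single Shh-specific region at the 5 genes (4.76% of 21 regions, against 0.887% of all). WT rep1 alone had 3 further promoter regions, of which 2 also lie over the promoter of the noncoding 2700033N17Rik. Beyond the 3′ end, WT rep1 (51.6%) and WT rep2 (96.8%) had 1 intergenic region each. The remaining intronic calls were in intron 4 in WT rep1 (73.9%) and in intron 7 in Shh-/- rep2 (92.1%).

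Meis3, a MEIS paralog on chromosome 7 (16175090 to 16186504, plus strand, 11.4 kb), had the fewest calls of its own. Its promoter window held 2 regions, both in WT rep1 alone and both ranked at 65.0%. No region lay wholly in an intron of Meis3. The 7 other regions of the window belong to neighbours, and 6 of them were called in WT rep1 alone, at Dhx34, which encodes an RNA helicase of nonsense-mediated decay, and at the pseudogene Gm45409. The start of Slc8a2, a sodium-calcium exchanger gene, was called in WT rep1 (16.0%), WT rep2 (49.7%) and Shh-/- rep2 (37.7%). Shh-/- rep1 had 0 peaks in the whole window.

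Pbx2 (chromosome 17, 34591266 to 34597400, plus strand) is a short gene of 6.14 kb in a dense stretch of genes, and its window held 19 regions. There were 19 peaks in WT rep1, 4 in WT rep2, 3 in Shh-/- rep1 and 5 in Shh-/- rep2. The start of Pbx2 was called in every library, at 8.73% in WT rep1, 21.5% in WT rep2, 54.8% in Shh-/- rep1 and 17.3% in Shh-/- rep2. Shh-/- rep1 stood apart from the other 3 only in percent of its list, which is the shortest. The ranks themselves were 3410 in WT rep1, 2577 in WT rep2, 3060 in Shh-/- rep1 and 3191 in Shh-/- rep2. The peak was 3459 bp long in WT rep1, 456 bp in WT rep2, 334 bp in Shh-/- rep1 and 944 bp in Shh-/- rep2, and the summits lay within 84 bp.

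The strongest peak of the Pbx2 window, and of all 5 windows in every library, was at the start of Rnf5, which encodes a ubiquitin ligase of the endoplasmic reticulum. Its rank was 44 in WT rep1, 165 in WT rep2, 34 in Shh-/- rep1 and 38 in Shh-/- rep2. The start of Agpat1, an enzyme gene of phospholipid synthesis, was ranked at 13.1%, 40.3% and 21.7% in WT rep1, WT rep2 and Shh-/- rep2. A region over an exon of Notch4 was ranked at 4.51%, 34.9% and 8.65% in the same libraries, and its peaks reached the promoter window of Gpsm3, a modulator of G-protein signaling, in WT rep1 and Shh-/- rep2 but not in WT rep2. The start of Atf6b, a transcription factor gene of the unfolded protein response, was ranked at 18.2% in WT rep1, 62.2% in Shh-/- rep1 and 28.2% in Shh-/- rep2. The other 14 regions, among them promoter regions of Ager, Gm20460, Notch4, Ppt2 and Prrt1 and exons of the Notch receptor gene Notch4, were called in WT rep1 alone. The best ranked distal one was such an exon, at rank 16965.

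Pbx3 (chromosome 2, 34171457 to 34373142, minus strand), as long as Meis2 at 202 kb, had no region between its start and its 3′ untranslated exon. It had 6 peaks in WT rep1, 2 in WT rep2, 1 in Shh-/- rep1 and 2 in Shh-/- rep2, in 5 regions. The start region (34371598 to 34373581) was ranked at 2.72% in WT rep1, 21.9% in WT rep2, 17.4% in Shh-/- rep1 and 4.52% in Shh-/- rep2, and WT rep1 had a second peak in it at 44.4%. In each library but WT rep2, where that of Pbx2 ranked slightly higher, this was the best ranked promoter among the 5 genes. The genotypes overlapped, with the longer list of each giving the stronger rank. No region lay wholly in an intron of Pbx3. The 3 distal regions, 1 in the 3′ untranslated exon (61.1%) and 2 beyond the gene, were called in WT rep1 alone. The start of the neighbour Mapkap1, a subunit gene of the TORC2 kinase complex, was called at 19.4% in WT rep1, 31.5% in WT rep2 and 42.5% in Shh-/- rep2.

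**Figure D3:**
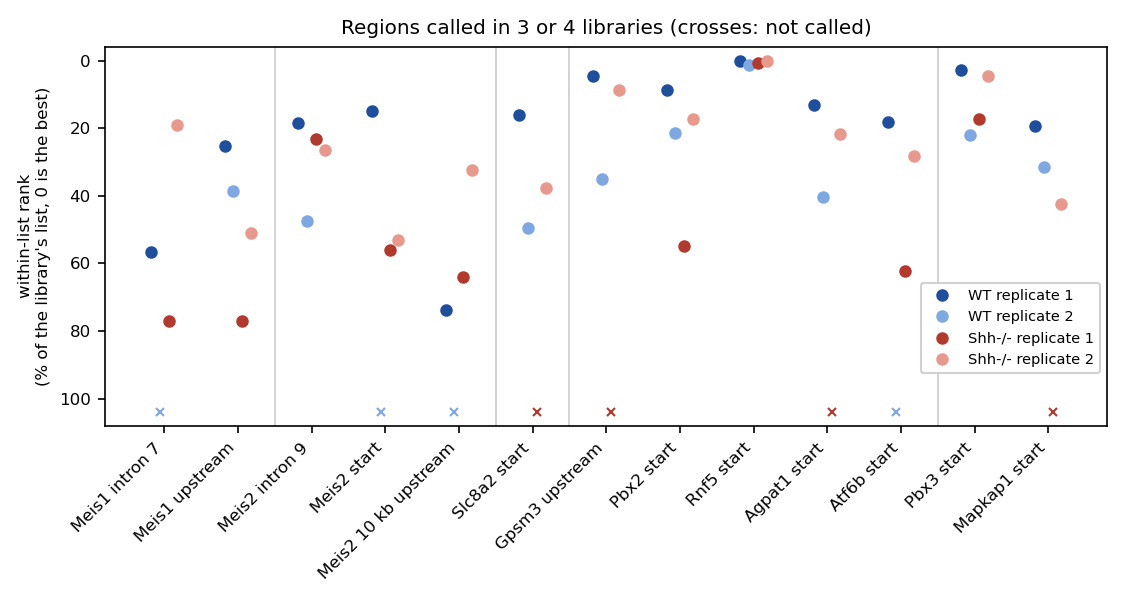
Rank within the library's own list, in percent of the list, for each region at the 5 genes that was called in at least 3 libraries, with 1 point per library that called it. Low values, plotted at the top, are strong peaks, and crosses mark libraries without a call. The start of Rnf5 lies at the top of every list. In percent, most other regions are ranked lowest in Shh-/- rep1 or WT rep2, which have the shortest lists.

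To set the genotypes against each other despite the unequal lists, the peaks at the 5 genes were given per 1000 peaks of the list. The share was 1.28 in WT rep1 and 0.919 in WT rep2, and 1.61 in Shh-/- rep1 and 0.975 in Shh-/- rep2. The groups overlapped, and the means of 1.10 ± 0.255 in WT and 1.29 ± 0.449 in Shh-/- (SD, n = 2) differed by -0.194, which was within the replicate spread (p = 0.667, two-sided exact permutation test). With 2 libraries a group the smallest p this test allows is 0.333, so it cannot pass 0.05. Without Shh-/- rep1 the sign changed, to 0.124. Without WT rep2 it was -0.0133, and without Shh-/- rep2 it was -0.511. It was -0.374 without WT rep1. In lists of equal size, with 5 and 7 peaks in WT and 9 and 8 in Shh-/-, the difference was -0.447, and with the gene bodies alone it was -0.318. In both of these settings the Shh-/- libraries lay above the WT libraries (exact permutation p = 0.333 in each, the smallest possible). At equal list size, a like separation was found at 3.32% of 13537 single protein-coding genes with a peak in these lists. No such share was taken for sets of 5 genes or for gene bodies alone, so neither separation sets the 5 genes apart from other loci.

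Meis1 and Meis3 were the genes at which the genotypes did not overlap, and they went opposite ways. Meis1 had 0.205 and 0.0835 peaks per 1000 in WT rep1 and rep2 and 0.358 and 0.325 in the Shh-/- replicates, a mean of 0.144 ± 0.0857 in WT and 0.341 ± 0.0232 in Shh-/- (SD, n = 2; exact permutation p = 0.333, adjusted over the 5 genes p = 0.833). Both Shh-/- libraries lay above both WT libraries at 11.1% of 17868 protein-coding genes with a peak in the window. Both Meis1 peaks of Shh-/- rep1 had a score of 42, and with scores of at least 50 the difference turned to 0.0862 in favour of WT. In lists of equal size the Meis1 groups overlapped (-0.179). Meis3 had 0.230 and 0.0835 in the WT replicates and 0 and 0.0542 in the Shh-/- replicates, a difference of 0.130 (exact permutation p = 0.333, adjusted p = 0.833), and a like separation in that direction was found at 13.0% of the genes. The difference rested on peaks at neighbours of Meis3 and turned to -0.134 with 100 kb on either side. WT rep2 and Shh-/- rep2 had 1 peak each, both at the start of Slc8a2, so list length alone set their order. Meis2, Pbx2 and Pbx3 overlapped between the genotypes, with differences of -0.149, 0.00631 and 0.0167.

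Meis2 separated in the shorter lists. In lists of equal size it had 0 peaks in each WT library, 3 in Shh-/- rep1 and 1 in Shh-/- rep2, a difference of -0.358 peaks per 1000. Such a separation was found at 3.32% of 13537 protein-coding genes with a peak in these lists, and a tied score decided 1 of the WT calls, as given below. With scores of at least 50 Meis2 had 3 and 0 peaks in WT rep1 and WT rep2 and 3 in each Shh-/- library, a difference of -0.409, and the separation was found at 7.16% of 16628 genes. The exact permutation p was 0.333 for both settings, and without Shh-/- rep1 the Meis2 difference in the full lists was 0.0109.

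**Figure D4:**
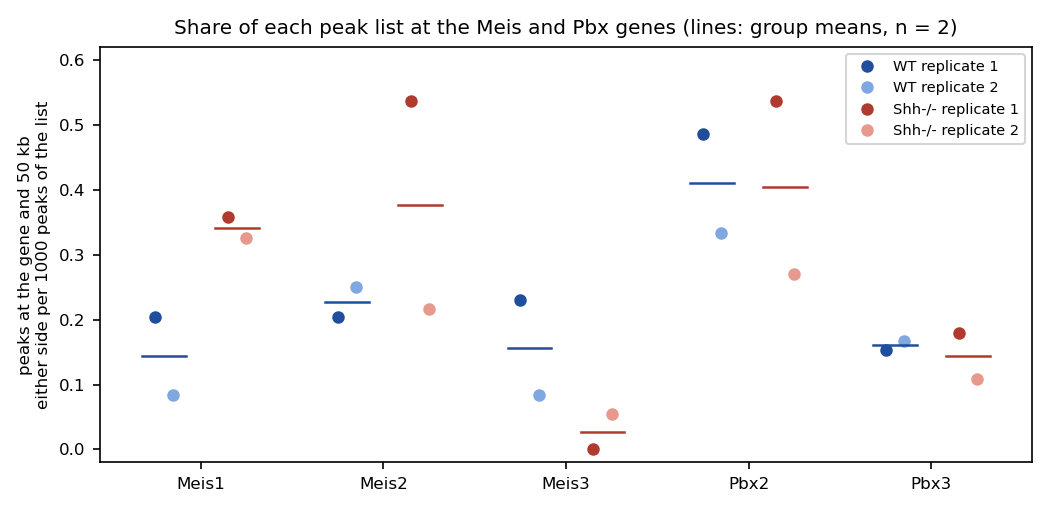
Peaks at each of the 5 genes per 1000 peaks of the library's list, with 1 point per library and the mean of each genotype. The Shh-/- libraries lie above the WT libraries at Meis1, and below them at Meis3, and the genotypes overlap at Meis2, Pbx2 and Pbx3. At Meis3, WT rep2 and Shh-/- rep2 had 1 peak each and differ by list length alone.

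When the lists were limited to the same length, the 5589 best peaks of each, 12 regions remained at the 5 genes. The starts of Pbx2, Rnf5 and Pbx3 were called in all 4 libraries (25.0%, against 28.6% of all regions in these lists). WT-specific regions numbered 0, against 3.73% of all regions. Shh-specific regions numbered 3, which is 25.0% against 3.30% of all regions, or against 9.13% of distal and 1.29% of promoter regions. They were intron 7 of Meis1, intron 9 of Meis2 and the start of Atf6b, each of which had a WT peak in the full lists, below this limit. Intron 9 of Meis2 was at the limit. Its score of 49 in WT rep2 is the score at which that list ends, and tied peaks there held ranks from 5578 to 6456, so the order of ties decided that call, although a random order also gave 3 Shh-specific regions. The list of Shh-/- rep1 was kept whole, down to a score of 19, whereas the others end at 49 to 209. In the full lists, 4 regions met the Shh-specific definition without Shh-/- rep1 (7.27%, against 7.81% of all regions) and 4 without WT rep1 (20.0% against 5.38%). In the full lists, distal regions called in Shh-/- rep1 had a median GC content of 48.7%, and those in Shh-/- rep2 51.7%. The medians were 53.3% in WT rep1 and 53.7% in WT rep2. Among the 3 Shh-specific regions, the printed window of Meis1 had 44.3%, below the median of 48.7%. The window of intron 9 of Meis2 lay above that median. The window of the start of Atf6b, a promoter region, had 62%, as did the median promoter region called in Shh-/- rep1. The part of base composition in these calls was not tested.

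The regions inside the long genes were scattered. An intronic cluster was defined as 3 or more regions wholly within introns of a gene, with gaps of at most 5 kb, and 0 were found, also with gaps of 2 kb or 10 kb. Meis1 had 5 intronic regions, with gaps of 4.48 to 32.2 kb and a median of 13.7 kb. Meis2 had 4 such regions, 1 of them within the promoter window, with gaps of 2.91 to 149 kb. Counted over the gene body and flanks, Meis1 had 4.60 regions per 100 kb, Meis2 had 3.63 and Pbx3 had 1.66, compared with a median of 1.21 over 2492 protein-coding genes of 100 kb or longer. Among those genes, 11.6%, 15.4% and 38.1% were at least as dense. Pbx2 had 17.9 regions per 100 kb and Meis3 had 8.08, against a median of 2.64 over 19446 shorter genes, of which 4.63% and 21.7% were at least as dense. Of the 19 Pbx2 regions, 14 were called in WT rep1 alone and 1 was at the promoter of Pbx2. Of the 9 Meis3 regions, 8 were called in WT rep1 alone and 2 were at the promoter of Meis3.

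By location, 25 of the 55 regions were at promoters (45.5%, against 39.2% of all regions), 11 in exons (20.0% against 12.9%), 13 in introns (23.6% against 27.6%) and 6 were intergenic (10.9% against 20.4%). Of the promoter regions 11 were at promoters of the Meis and Pbx genes themselves. Promoter peaks of the 5 genes were called in all 4 libraries at Meis1, Pbx2 and Pbx3, in 3 libraries at Meis2 and in 1 at Meis3. In comparison, 16.1% of 21938 protein-coding genes had a promoter peak in all 4 libraries, and 60.4%, 39.2%, 17.3% and 51.3% had one in WT rep1, WT rep2, Shh-/- rep1 and Shh-/- rep2.

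Other genes of the same setting had their promoters called most often in the longer lists. For the 5 Meis and Pbx genes the promoter counts were 5 in WT rep1, 3 in WT rep2, 4 in Shh-/- rep1 and 4 in Shh-/- rep2. Of 5 TALE proteins and partners, 5 were called in WT rep1, 4 in WT rep2, 1 in Shh-/- rep1 and 5 in Shh-/- rep2, with Pknox1, another TALE factor, called in all. Of 6 retinoic acid genes the counts were 6, 4, 2 and 6 in that order, with the receptor gene Rarg called in all 4. Of 6 further proximal limb genes the counts were 6, 3, 4 and 6, with Irx3 and Irx5, Iroquois factors of the early limb bud, called in all 4. In these 3 lists 0 promoters were WT-specific and 0 were Shh-specific, against 1.53% and 0.00456% of protein-coding genes.

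The median GC content of the 300 bp windows was 55.7% at the 5 genes and 55.3% overall. Among distal regions it was 48.0% at Meis1, 53.8% at Meis2 and 47.3% at Pbx3, against 53.0% for all. The MEIS core TGACAG was found in 11 of 55 windows (20.0%, against 21.9% of all regions), in 9 of 30 distal windows (30.0% against 25.5%) and in 2 of 25 promoter windows (8.0% against 16.2%). The composite PBX and MEIS sequence, TGAT directly followed by that core, was in 0 windows (0.150% of all). The PBX and HOX sequences TGATTGAC and TGATTGAT, of which the former overlaps the composite, were also in 0 windows (1.28% of all), as were the GLI consensus TGGGTGGTC (0.472% of all) and the retinoic acid receptor repeat, 2 copies of AGGTCA in the same direction with 5 bases between them (0.0380% of all). The GC box GGGCGG was in 15 windows (27.3% against 29.3%) and the CCAAT box in 21 (38.2% against 31.5%). Both strands were searched, a match is a description of the letters alone, and the lack of a match says nothing about binding of the factor elsewhere in the region.

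The genes most like each of the 5 in peak number over the 4 libraries were listed by Euclidean distance of log2(peaks + 1). Ddx1 and Gpc5 had the same 4 numbers as Meis1, and Tsc1 followed at 0.170. Tsnaxip1 and Apoc4 matched Meis2 exactly, and Hnrnpl followed at 0.152. For Meis3, 14 genes had the same numbers, of which Mettl27, Itih3 and Itih4 were nearest in length. Dennd1a was nearest to Pbx2 at 0.0704, then Gm42417 and Ankrd39 at 0.202. Pbx3 shared its numbers with 31 genes, of which Dnah6, Tec and Gtf2ird1 were nearest in length.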

How the data were processed

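ATAC-seq libraries of 2 WT and 2 Shh-/- posterior forelimb buds were assigned to groups from their titles. The authors called peaks per library with MACS2 (window 200 bp, q-value cutoff 0.05, mm10). The submitters' processing notes name Bowtie2 2.2.5 and MACS2 2.1.0. Read filters and any Tn5 shift are not given in the sources used here. The deposited score of each peak is by the caller's format 10 times its highest −log10 q-value, a scale the files do not state, and was used to rank peaks within a list, ties by position. The other value columns the authors deposited (fold, p-value, q-value) are 0 throughout and were not used. The lists hold no counts, so the usable depth of each library is unknown, no counting interval was computed and the study's limma fit was not repeated.

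Peaks overlapping by at least 1 bp were merged and annotated with GENCODE M21 (basic set). Group means were compared by exact permutation tests, Benjamini-Hochberg adjusted over the 5 genes. Alternatives were a score of at least 50, equal list size, other windows, summits within 200 bp, random ties, whole-region motif search, covered length, the replicate block and leaving out each library. The rule for regions described singly took those called in all 4 libraries, those following genotype and the best ranked distal region of each gene. Named neighbours have a promoter peak in a window, and alike genes are the 3 nearest by peak number. Other regions, and single genes of the pathway lists, were picked for naming after their values were seen. The genes and lists were chosen with earlier results of these data known. Scripts (Python 3.11.15, numpy 2.4.6, scipy 1.17.1, matplotlib 3.10.9) were tested on simulated lists. The sequence and position of 1 region in Meis2 are not reported here.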

Additional observations from a re-analysis of the deposited data

How the results depend on the processing

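No setting lets a permutation test of 2 against 2 libraries reach 0.05, so its p-values are silent on stability. Shares in parentheses are those of the regions at the 5 genes against all regions. Regions called in all 4 libraries went from 5 to 3 with a score of at least 50 (14.3% against 13.5%), at equal list size (25.0% against 28.6%) and with the gene body alone (17.6% against 7.97%), and to 8 with 100 kb on either side (10.7% against 7.97%). They ranged from 5 to 9 when single libraries were left out, with 9 without WT rep2 (16.7% against 10.7%) or Shh-/- rep1 (16.4% against 19.4%). WT-specific regions went from 0 to 1 with 100 kb on either side (1.33% against 2.09%) and ranged from 0 to 36 without single libraries, with 36 without WT rep2 (66.7% against 56.1%), 4 without Shh-/- rep2 (7.84% against 14.3%) and 2 without WT rep1 (10% against 13.7%). Shh-specific regions went from 0 to 1 with a score of at least 50 (4.76% against 0.887%) and to 3 at equal list size (25.0% against 3.30%), and ranged from 0 to 4 without single libraries, with 4 without WT rep1 (20.0% against 5.38%) or Shh-/- rep1 (7.27% against 7.81%). By construction, leaving out a library loosens these definitions. Otherwise the cause was not tested.

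The difference in share of the 5 genes was -0.194 peaks per 1000. It was -0.447 at equal list size, -0.318 with the gene body alone, -0.287 with a score of at least 50 and -0.262 with 100 kb, and ranged from -0.511 to 0.124 without single libraries, reversed without Shh-/- rep1. With covered length it was -0.195 kb per Mb. Among single genes, Meis1 turned to 0.0862 and Pbx2 to -0.0141 with a score of at least 50, Pbx2 to -0.0492 and Pbx3 to -0.0364 with the gene body alone, and Meis3 to -0.134 with 100 kb. Without single libraries, Pbx2 ranged from -0.127 to 0.139, Pbx3 from -0.0186 to 0.0519 and Meis2 from -0.309 to 0.0109. The cause was not tested. The replicate numbers gave pair differences of -0.331 and -0.0564. With the replicate block the mean was again -0.194 (exact sign-flip permutation test, p = 0.5, the smallest value possible with 2 pairs), and the labels give no reason to pair the numbers. The difference in calls between rep1 and rep2 in WT correlated with that in Shh-/- at r = 0.245 over 44692 regions. Regions called in WT rep1 and Shh-/- rep1 alone numbered 187, and in WT rep2 and Shh-/- rep2 alone 98. Those in WT rep1 and Shh-/- rep2 alone numbered 4931, and in WT rep2 and Shh-/- rep1 alone 5. This r therefore does not show that libraries of the same number deviate together. Intronic clusters stayed at 0 with each gap tried, and random order of ties left 29 peaks at the 5 genes in the lists of equal size. Whole regions gave 14 MEIS matches in place of 11 (25.5% against 31.9%), and 2 regions with a PBX and HOX sequence in place of 0 (3.64% against 2.13%). Among whole distal regions the MEIS core was in 8 of 30 (26.7% against 30.6%). The distal share thus lay below that of all distal regions, and not above it as in the 300 bp windows. A region missing from a short list may lie below its detection limit.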
